A study of Mus musculus with 56 samples.

Results

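On the day of birth (D0), the transcriptomes of cortical and medullary thymic epithelial cells (cTECs and mTECs) were compared in mice that had just delivered. Of the 56 RNA samples of the series, 6 carry the label D0: 3 of cTECs and 3 of mTECs, with the title numbers 1, 2 and 4 in each cell type. Samples of the same number were treated as a pair. Levels are given as FPKM (RSEM's level per gene, scaled for transcript length and for the size of the library), and the 17874 of 50600 genes with a mean of at least 0.5 FPKM in either cell type were compared. Kcnd1, at 0.5 FPKM, lay just inside this limit, and Lims2, at 0.497 FPKM, just outside.

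The mice were B6.SJL females that had been mated with BALB/cJ males, and their pups were removed at birth. No further treatment or mutation is given, and their age is not given in the sources used here. Thymi were digested with papain, collagenase IV and DNase, and EpCAM+CD45- cells were sorted from 1 mouse per replicate as UEA1- cells, labelled cTEC, or UEA1+ cells, labelled mTEC. UEA1 is a plant lectin that binds fucosylated sugars, so each label stands for a sorted mixture of epithelial cells rather than for a single cell state. The same contrast was also taken in other mice: pregnant mice before delivery (D-2), mice at D3 after delivery, and non-pregnant controls (NPC), each with 3 samples per cell type.

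The thymus shrinks during pregnancy and grows again after delivery. In its cortex, cTECs attract lymphoid progenitors, commit them to the T cell lineage through Notch ligands, and display the peptides on which thymocytes are positively selected. In the medulla, mTECs attract the selected thymocytes and express genes of many peripheral tissues, under the control of AIRE and FEZF2, so that self-reactive cells are removed or diverted to the regulatory lineage.

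The 6 libraries held between 10273164 and 32439692 expected counts each, with 14613 to 22094 genes detected by at least 1 count. The sample mTEC replicate 2 stood apart. Across the genes compared, its Spearman correlation with the other 5 samples was 0.755 to 0.818, while all other pairs of samples were at 0.865 to 0.948. It had 3821 of these genes at 0 FPKM, against 860 to 2849 in the other samples. For this reason, counts of genes were repeated without the samples of each title number. For gene lists they are given in brackets where they moved by more than 1.5 times, with the count higher in cTECs before that higher in mTECs.

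The labels were first checked against 3 markers of each cell type. Psmb11, on GRCm38 at chr14:54621433-54629556, encodes the thymoproteasome subunit beta5t, which cTECs use to make the peptides for positive selection. Its level was 85.7, 79.2 and 80.5 FPKM in the cTEC samples and 27.9, 11.9 and 24.2 FPKM in the mTEC samples of replicates 1, 2 and 4. Prss16, at chr13:22002173-22009742, encodes a thymus-specific serine protease of cTECs and was at 519, 623 and 389.9 FPKM in cTECs and 109, 118 and 120.4 FPKM in mTECs. Ly75 (chr2:60292103-60383303), the endocytic receptor DEC-205, was at 41.6, 57.8 and 61.5 FPKM in cTECs and 11.8, 13.8 and 16.4 FPKM in mTECs. For all 3 genes the lowest cTEC sample lay above the highest mTEC sample. The log2 fold change (cTEC minus mTEC, so that values above 0 are higher in cTECs) was 1.98 ± 0.24 (SE) for Psmb11, 2.28 ± 0.22 for Prss16 and 1.97 ± 0.20 for Ly75, with adjusted p-values in limma-voom of 9.65e-05, 1.32e-05 and 2.69e-05.

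On the medullary side, Aire (chr10:78030022-78043610), the regulator that releases tissue-restricted genes, was at 5.89, 3.83 and 6.60 FPKM in cTECs and 55.9, 91.3 and 38.8 FPKM in mTECs. Fezf2 (chr14:12342094-12348189), a transcription factor that controls another share of such genes, was at 25.2, 17.9 and 21.9 FPKM in cTECs and 130.4, 126 and 108 FPKM in mTECs. Ccl21a (chr4:42772860-42773993), the chemokine that draws positively selected thymocytes into the medulla, was at 5246, 4992 and 5616 FPKM in cTECs and 13752, 8667 and 13613 FPKM in mTECs. Again no cTEC sample reached the level of an mTEC sample. The log2 fold change was -3.65 ± 0.38 for Aire (adjusted p = 3.32e-05), -2.52 ± 0.20 for Fezf2 (2.76e-06) and -1.17 ± 0.16 for Ccl21a (0.000245). Among the markers of both sides, Ccl21a alone was not called in edgeR (adjusted p = 0.0536). The markers of either side were thus present in the other gate at lower levels, with Ccl21a at a high level in both. Reads of Ccl21a can be shared with its near-identical copies. The copy Ccl21b was listed at 36.7, 28.3 and 0 FPKM in cTECs and 0, 194 and 0 FPKM in mTECs, a small part of the Ccl21a level in each sample.

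**Figure D1:**
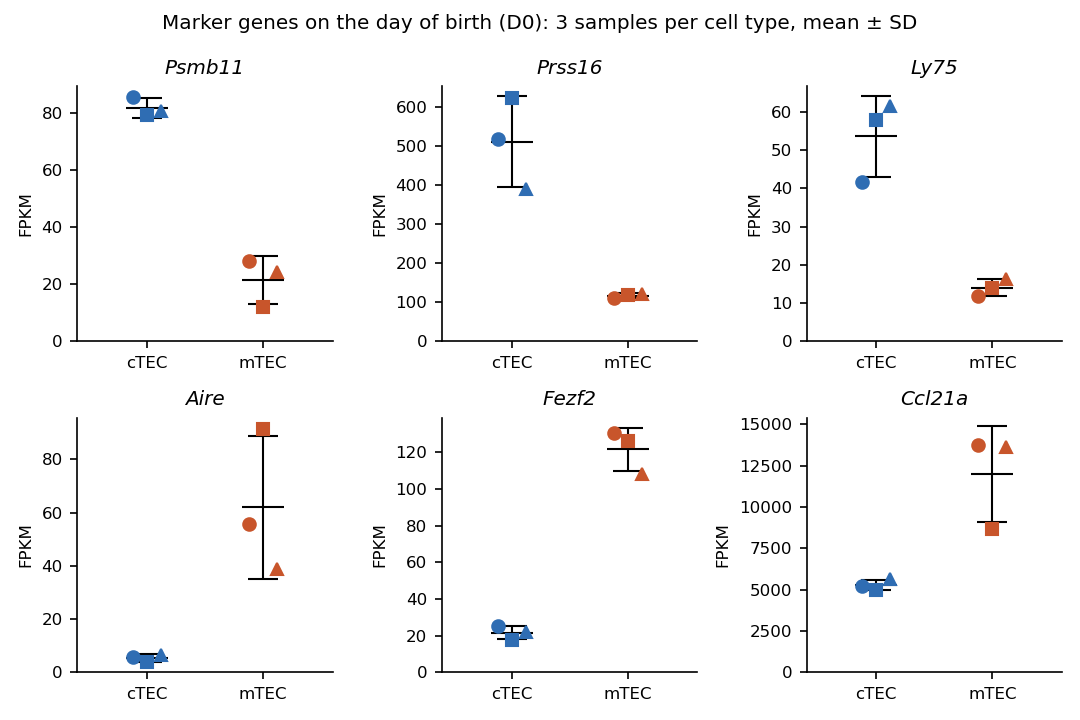
FPKM (linear axis from 0) of the 6 marker genes in the 3 cTEC and 3 mTEC samples of D0, with circles, squares and triangles for replicates 1, 2 and 4 and black lines for the mean ± SD. The cTEC and mTEC samples do not overlap in any panel, and the widest gap on the log2 scale is that of Aire, at -3.65.

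The promoter windows of 4 genes that mark the contrast are shown, because the called genes are compared below for the letters marked in them. Psmb11 is on the cortical side, and Aire, Fezf2 and Crp, a liver gene, are on the medullary side. Each window runs from 250 bases before to 50 bases after the RefSeq start on GRCm38.p6, 5′ to 3′ on the strand of the gene. Capitals mark GACGC on either strand (GCGTC is its reverse complement), the core letters bound by FOXN1, the master regulator of the thymic epithelium, and TATAAA on the strand of the gene, the TATA box.
Psmb11 (chr14:54625060-54625359, plus strand): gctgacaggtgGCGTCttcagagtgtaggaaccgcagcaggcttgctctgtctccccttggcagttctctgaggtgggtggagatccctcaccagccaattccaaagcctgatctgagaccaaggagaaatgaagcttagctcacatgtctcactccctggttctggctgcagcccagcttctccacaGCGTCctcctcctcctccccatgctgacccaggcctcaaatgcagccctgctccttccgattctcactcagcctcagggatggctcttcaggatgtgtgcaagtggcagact
Aire (chr10:78043561-78043860, minus strand): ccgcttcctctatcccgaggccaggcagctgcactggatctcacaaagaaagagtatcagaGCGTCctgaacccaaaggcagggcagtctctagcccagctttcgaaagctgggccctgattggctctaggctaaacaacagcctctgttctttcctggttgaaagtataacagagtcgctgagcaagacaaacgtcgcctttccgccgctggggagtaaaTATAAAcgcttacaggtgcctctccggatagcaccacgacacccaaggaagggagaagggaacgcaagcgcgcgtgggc
Fezf2 (chr14:12345816-12346115, minus strand): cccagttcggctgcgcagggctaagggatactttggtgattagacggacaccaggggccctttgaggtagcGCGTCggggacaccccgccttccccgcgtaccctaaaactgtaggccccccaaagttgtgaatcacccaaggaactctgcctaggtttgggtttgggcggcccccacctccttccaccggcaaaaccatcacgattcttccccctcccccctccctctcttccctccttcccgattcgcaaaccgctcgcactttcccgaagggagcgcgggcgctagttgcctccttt
Crp (chr1:172697806-172698105, plus strand): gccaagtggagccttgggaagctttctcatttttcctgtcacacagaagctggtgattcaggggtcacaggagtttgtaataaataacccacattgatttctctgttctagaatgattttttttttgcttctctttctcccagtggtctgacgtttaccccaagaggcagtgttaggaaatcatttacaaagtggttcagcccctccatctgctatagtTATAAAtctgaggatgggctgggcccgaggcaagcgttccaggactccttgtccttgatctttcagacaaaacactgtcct
Psmb11 had GACGC at bases 12 to 16 and 189 to 193 of its window, Aire at 62 to 66 and Fezf2 at 72 to 76, in each case on the reverse strand. TATAAA began 29 bases before the start of Aire and 31 bases before that of Crp. The windows of Psmb11 and Crp held 4 and 3 CG dinucleotides, those of Aire and Fezf2 16 and 20.

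Over all genes compared, 501 were called (2.8% of 17874). A call required an adjusted p (Benjamini-Hochberg) no larger than 0.01 together with a difference of 2-fold or more. Of these, 144 were higher in cTECs (0.806%) and 357 were higher in mTECs (2.0%). The mTEC side was made of larger differences at lower levels. Its called genes had a median size of log2 fold change of 2.06 against 1.52 for the genes higher in cTECs, and 190 of 357 (53.2%) against 43 of 144 (29.9%) differed by at least 4-fold. Their median level in the higher cell type was 28.8 FPKM against 59.1 FPKM, and in the lower cell type 7.73 FPKM against 20.5 FPKM. Nearly all were protein-coding, 350 of the 357 and 143 of the 144. Over all genes compared, the median log2 fold change was 0.005. The number of calls depended on the test, with 242 in edgeR, 1400 in DESeq2 and 13 in limma-trend on log2(FPKM + 0.5), so single genes near the thresholds should be read by their values.

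FPKM values of cTECs and mTECs did not overlap for 135 of the 144 and 344 of the 357 called genes, while this held for 4145 of all 17874 genes (23.2%). In the called genes higher in mTECs, replicate 2 was the highest of the mTEC samples in 233 of 357, against 7491 of all 17874. Without the samples of replicate 2, 858 genes were called (4.8%), 265 higher in cTECs and 593 higher in mTECs, and 449 of the 501 were among them. Without replicate 1 and without replicate 4 there were 225 and 498 calls, of which 218 and 388 were among the 501. All 501 kept their direction in each of these fits.

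**Figure D2:**
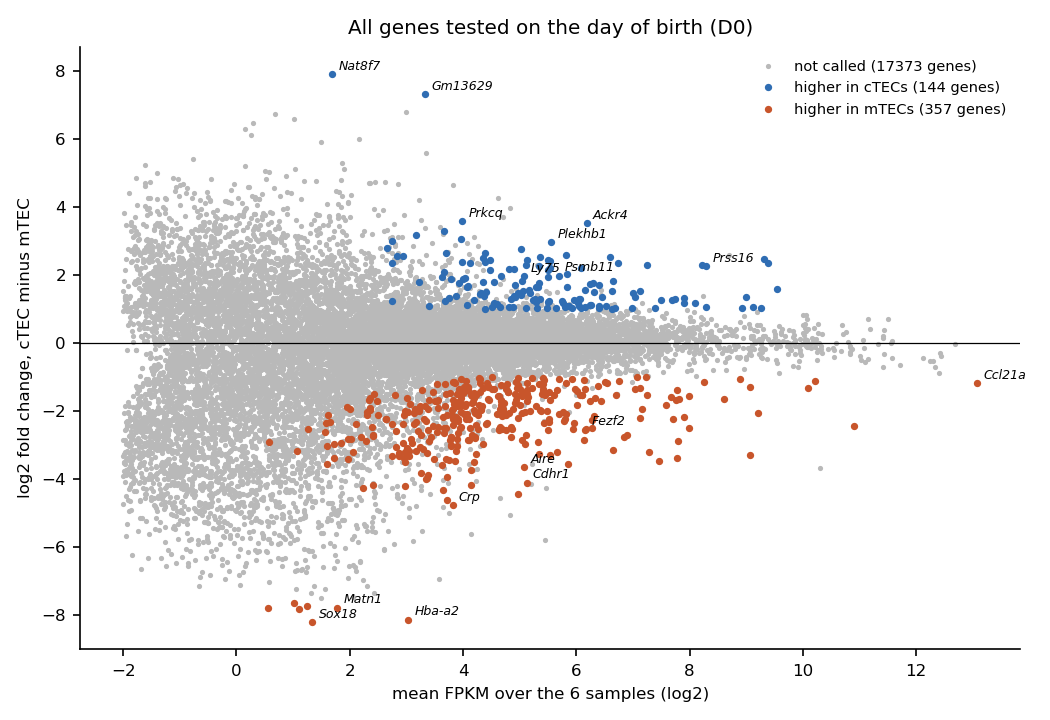
Log2 fold change (cTEC minus mTEC) of each of the 17874 genes against its mean FPKM over the 6 D0 samples (log2), with called genes in blue (144 higher in cTECs) and orange (357 higher in mTECs) and the others in grey. Called genes below 0 reach lower levels and larger fold changes than those above 0.

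Counts of called genes in the lists below are read beside the 2.8% called over all genes, 0.806% higher in cTECs and 2.0% higher in mTECs. In a short list, a few calls describe those genes and not the list. Of 16 genes known for cTECs, 9 were called, all higher in cTECs, and 7 were not, with a median log2 fold change over the list of 1.46. Beside the markers they were the chemokines Ccl25 and Cxcl12, Kitl, Enpep, Cd83 and the scavenging chemokine receptor Ackr4. Ackr4 was at 115, 180.5 and 105 FPKM in cTECs and 12.5, 13.9 and 9.73 FPKM in mTECs, a log2 fold change of 3.54 ± 0.30 (adjusted p = 5.24e-06). Enpep, an aminopeptidase known on cortical epithelium as Ly51, was at 25.2, 48.6 and 34.5 FPKM in cTECs and 6.54, 11.8 and 6.76 FPKM in mTECs. Cd83, which keeps MHC class II on the surface of cTECs, was at 22.7, 41.8 and 22.2 FPKM against 5.34, 9.0 and 2.95 FPKM. Neither overlapped between cell types.

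The remaining cTEC genes did not pass both thresholds. Ctsl, the protease that makes cortical class II peptides, was at 1306, 1651 and 1161 FPKM in cTECs and 681, 689 and 886 FPKM in mTECs, and at 0.84 ± 0.18 on the log2 scale it missed the fold threshold only (adjusted p = 0.00844). Krt18 likewise differed by 0.71 ± 0.14 (adjusted p = 0.00667). Dll4, the Notch ligand that commits progenitors to the T lineage, was at 8.19, 10.2 and 10.2 FPKM in cTECs and 6.72, 6.60 and 7.02 FPKM in mTECs, with a 95% confidence interval of the log2 difference from -0.16 to 1.11. Il7, the survival cytokine of early thymocytes, was at 89.5, 77.9 and 80.8 FPKM against 90.0, 97.0 and 155 FPKM, with an interval from -0.91 to -0.06. Dll4 was thus highest in the cTEC samples and Il7 in the mTEC samples, without overlap, but neither difference passed the test.

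The genes with the largest differences were taken from the called genes with a mean of at least 5 FPKM in the higher cell type and no overlap, 12 on either side. On the cTEC side they were Ackr4 and Nat8f7, Gm13629, Prkcq, Abat, Scn1a, Snhg11, Sdk1, Plekhb1, Kl, Syngr1 and Slc36a1. Prkcq, protein kinase C theta, best known from T cell receptor signalling, was at 29.0, 32.6 and 24.8 FPKM in cTECs and 3.31, 3.42 and 1.75 FPKM in mTECs. Abat, which breaks down the neurotransmitter GABA, was at 19.7, 24.8 and 23.8 FPKM against 3.08, 2.82 and 2.28 FPKM, and the sodium channel gene Scn1a was at 13.6, 14.1 and 19.9 FPKM against 2.18, 2.55 and 1.94 FPKM. All 3 cTEC samples lay well above all 3 mTEC samples for each of these genes.

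Plekhb1, a membrane protein of photoreceptors and glia, was at 83.4, 78.9 and 89.5 FPKM in cTECs and 14.0, 4.30 and 12.6 FPKM in mTECs. Syngr1, a protein of synaptic vesicles, was at 61.9, 51.4 and 51.0 FPKM against 18.8, 1.79 and 9.71 FPKM. Slc36a1, an amino acid transporter of lysosomes, was at 37.3, 33.6 and 34.4 FPKM against 10.7, 2.81 and 7.29 FPKM. In these 3 genes mTEC replicate 2 was the lowest of the 6 samples. Sdk1, a cell adhesion molecule of synapses, was at 8.66, 10.1 and 12.3 FPKM against 6.61, 0.69 and 1.85 FPKM. The counts that were tested were 675, 2128 and 2997 against 141, 68 and 169. So mTEC replicate 1 came close to the cTEC samples in FPKM, which is scaled for transcript length, but not in counts.

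Snhg11, a host gene of small nucleolar RNAs, was at 23.8, 33.0 and 27.9 FPKM in cTECs and 3.94, 2.11 and 3.05 FPKM in mTECs. Nat8f7, of an acetyltransferase family, was at 9.40, 4.35 and 5.63 FPKM in cTECs and 0 in all mTEC samples. Against a floor of 3 counts per library it was at least 43.5-fold higher in cTECs. Gm13629, a transcript annotated as antisense, was at 17.4, 22.5 and 19.4 FPKM against 0.83, 0 and 0 FPKM. Both are uncertain, as are other genes that overlap a gene on the other strand, such as Aire with Dnmt3l, Ackr4 with Acad11 and Ly75 with Gm13571. Nat8f7 has close copies among which reads can be split, and Gm13629 overlaps Scn9a on the other strand, while the strand setting of the counting is not given in the sources used here. Without replicate 1, Nat8f7, Gm13629, Prkcq, Sdk1 and Kl were no longer called, with adjusted p-values of 0.0344, 0.0126, 0.018, 0.0253 and 0.0368. Without replicate 4 the first 2 of these were also lost (adjusted p = 0.0559 and 0.111).

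Of 20 genes known for mTECs, 10 were called, all higher in mTECs, and 10 were not, with a median log2 fold change of -1.82. Among the 22 thymic epithelial transcription factors, 5 were higher in mTECs, including Aire, Fezf2, Spib and Ehf. Spib, a regulator of mTEC maturation, was at 29.9, 19.6 and 16.1 FPKM in cTECs and 104, 91.9 and 108 FPKM in mTECs, with a log2 fold change of -2.53 ± 0.20 (adjusted p = 2.76e-06). Ehf, an epithelial ETS factor, was at 21.4, 15.3 and 19.7 FPKM against 37.5, 53.0 and 38.2 FPKM. The single factor of this list called in the other direction was Pax1, needed for the third pharyngeal pouch, at 451, 409 and 409 FPKM in cTECs and 223, 204 and 171 FPKM in mTECs. The same counts, 1 and 5, were found without replicate 1, 2 or 4.

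Foxn1 was at 169.9, 157 and 178 FPKM in cTECs and 127, 84.8 and 86.6 FPKM in mTECs. The 2 cell types did not overlap, but at 0.77 ± 0.18 on the log2 scale and an adjusted p of 0.0149 the gene passed neither threshold. Trp63, which maintains epithelial progenitors, was at 83.5, 119 and 107 FPKM against 67.6, 85.1 and 88.4 FPKM (interval from -0.06 to 0.69).

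Of the 14 partners and cofactors of AIRE in the list, 4 were called, all higher in mTECs. Beside Aire and Fezf2 they were Top2a, a topoisomerase that AIRE recruits, at 5.06, 4.71 and 1.71 FPKM in cTECs and 8.78, 34.1 and 6.08 FPKM in mTECs, and Sirt1, a deacetylase that acts on AIRE, at 9.86, 12.2 and 15.3 FPKM against 22.6, 38.4 and 20.2 FPKM. In both, mTEC replicate 2 was the highest sample, and without the samples of replicate 2 Aire and Fezf2 alone were called in this list. Without replicate 1 and without replicate 4 there were 2 and 3 calls. Chd4, another partner, was not called, at 0.18 on the log2 scale.

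The 12 genes with the largest differences on the mTEC side were Sox18, Hba-a2, Matn1, Crp, Chil3, Fgf21, Dsg1a, Acacb, Col6a4, Pgc, Thbs4 and Cdhr1. Cdhr1, a cadherin of photoreceptors, was at 3.13, 3.69 and 4.61 FPKM in cTECs and 55.9, 71.5 and 69.9 FPKM in mTECs, with a log2 fold change of -4.11 ± 0.26 (adjusted p = 6.24e-07). It and Ackr4 were the only 2 of the 30 genes named by rule that were called under all 19 alternatives. Dsg1a, a desmoglein of the epidermis, was at 1.05, 1.13 and 1.55 FPKM against 15.2, 30.2 and 26.2 FPKM. Fgf21, a metabolic hormone of the liver, was at 0.53, 4.24 and 2.91 FPKM against 46.1, 91.6 and 41.7 FPKM. The lowest mTEC sample lay far above the highest cTEC sample in all 3 genes.

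Crp, the C-reactive protein of the liver, was at 0.74, 0.27 and 1.84 FPKM in cTECs and 33.8, 16.5 and 31.3 FPKM in mTECs. Pgc, the pepsinogen of the stomach, was at 2.86, 1.09 and 1.32 FPKM against 15.5, 75.9 and 9.45 FPKM. Col6a4, a collagen VI chain, was at 1.41, 0.76 and 0.66 FPKM against 11.5, 27.0 and 5.76 FPKM, and Acacb, the acetyl-CoA carboxylase of mitochondria, was at 0.59, 0.31 and 0.54 FPKM against 3.32, 15.2 and 8.37 FPKM. In Pgc, Col6a4 and Acacb mTEC replicate 2 was the highest sample. Chil3, a chitinase-like lectin of myeloid cells, was at 0, 1.98 and 1.69 FPKM against 11.1, 39.1 and 25.2 FPKM. Thbs4, a thrombospondin of tendon, was at 0.32, 0.3 and 0.97 FPKM against 11.2, 5.64 and 13.3 FPKM.

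Matn1, a matrix protein of cartilage, was at 0, 0 and 0.1 FPKM in cTECs and 7.82, 6.14 and 6.50 FPKM in mTECs. Sox18, a transcription factor of endothelium, was at 0 in all cTEC samples and at 4.56, 8.76 and 1.85 FPKM in mTECs, at least 49.3-fold higher against a floor of 3 counts per library. Hba-a2, an alpha globin gene, was likewise at 0 in cTECs and at 15.9, 28.5 and 4.78 FPKM in mTECs (at least 48.9-fold higher). Its near-identical copy Hba-a1 was at 2.66, 0.81 and 0.91 FPKM in cTECs and 0, 0 and 2.35 FPKM in mTECs, so the split of reads between them is uncertain. Of the 12 genes, 10 were no longer called without replicate 1, Cdhr1 and Dsg1a being the exceptions, with adjusted p-values of 0.0128 to 0.0907. Without replicate 4, Sox18, Hba-a2, Matn1, Crp, Chil3 and Thbs4 were lost, with adjusted p-values of 0.0233 to 0.172. Without replicate 2 all 12 were called.

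**Figure D3:**
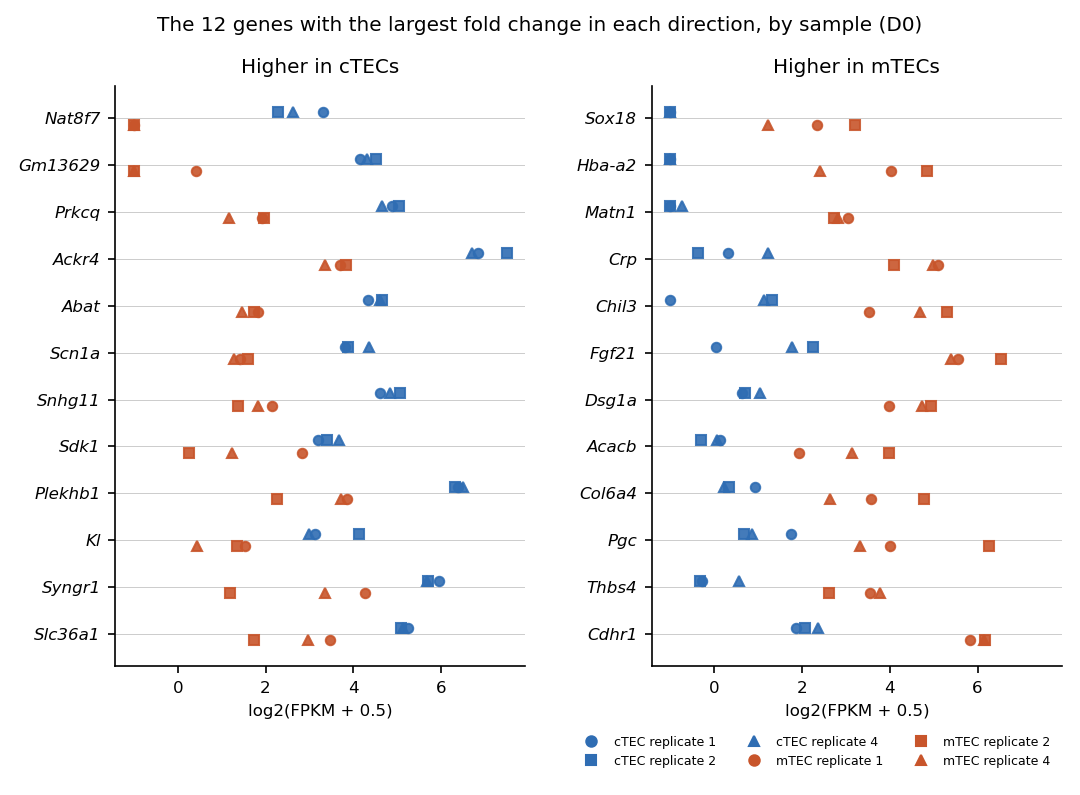
FPKM as log2(FPKM + 0.5) in each D0 sample for the 12 genes with the largest fold change in either direction, cTECs in blue and mTECs in orange, with circles, squares and triangles for replicates 1, 2 and 4, and points at -1 for 0 FPKM. No gene overlaps between cell types. Among the genes higher in cTECs, mTEC replicate 2 (orange squares) is the lowest mTEC sample in Snhg11, Sdk1, Plekhb1, Syngr1 and Slc36a1. It is the highest in Prkcq, Ackr4 and Scn1a. Among the genes higher in mTECs, it is the highest mTEC sample in Sox18, Hba-a2, Chil3, Fgf21, Dsg1a, Acacb, Col6a4, Pgc and Cdhr1. In Matn1, Crp and Thbs4 it is the lowest.

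Of 18 chemokines and atypical receptors, 4 were higher in cTECs and 3 in mTECs (2 and 6 without replicate 2). Cxcl12, which retains progenitors in the cortex through CXCR4, was at 509, 526 and 437 FPKM in cTECs and 122, 81.1 and 101 FPKM in mTECs, a log2 fold change of 2.31 ± 0.19 (adjusted p = 2.76e-06). Ccl25, the ligand of CCR9 on early thymocytes, was at 741, 683 and 564 FPKM against 334, 290.4 and 317 FPKM, close to the fold threshold at 1.04 ± 0.17. Cx3cl1, the membrane-bound ligand of CX3CR1, was at 123, 133 and 134 FPKM against 86.6, 74.4 and 64.3 FPKM (1.04 ± 0.19). Ccl25 was not called without replicate 1 or without replicate 2, and Cx3cl1 not without replicate 2.

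On the medullary side, Cxcl14, an epithelial chemokine, was at 3.46, 2.56 and 1.68 FPKM in cTECs and 41.5, 30.0 and 26.7 FPKM in mTECs. Cxcl9, an interferon-induced ligand of CXCR3, was at 15.5, 5.51 and 12.7 FPKM against 122, 114 and 77.7 FPKM, while its relative Cxcl10 was at 416, 422 and 428 FPKM against 528, 485 and 365 FPKM (interval from -0.42 to 0.29). So of these interferon-induced genes, Cxcl9 was higher in mTECs and Cxcl10 overlapped. Ccl19, Ccl20 and Ccl22, further medullary chemokines, had log2 fold changes of -1.12, -2.63 and -2.03 and adjusted p-values of 0.0248, 0.0322 and 0.0206. All 3 were called without replicate 2.

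Of 18 genes of the Notch pathway, 2 were called in each direction (0 and 1 without replicate 1, 1 and 3 without replicate 2). Jag2, a Notch ligand, was at 89.5, 104 and 97.5 FPKM in cTECs and 43.8, 46.0 and 48.1 FPKM in mTECs, and Hey1, a Notch target, was at 62.7, 49.1 and 78.3 FPKM against 30.6, 17.4 and 34.2 FPKM. The targets Hes6, at 41.4, 37.9 and 39.7 FPKM against 179, 88.5 and 132 FPKM, and Heyl, at 26.6, 10.8 and 23.8 FPKM against 44.4, 36.2 and 46.9 FPKM, were higher in mTECs. Hey1 and Heyl, of the same family of targets, thus differed in opposite directions. Hes1, the best known target, was at 0.44 (interval from -0.01 to 0.89).

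Of 16 genes of the TNF receptor and NF-kB list, 3 were called, all receptors and all higher in mTECs (1 without replicate 1, 5 without replicate 4). Cd40, the receptor through which thymocytes drive mTEC growth, was at 7.10, 16.3 and 7.98 FPKM in cTECs and 39.1, 53.8 and 29.9 FPKM in mTECs. Tnfrsf11a, which encodes RANK, was at 5.73, 4.95 and 6.26 FPKM against 24.4, 36.6 and 25.5 FPKM, and Tnfrsf11b, the decoy receptor osteoprotegerin, was at 1.5, 1.25 and 1.51 FPKM against 8.90, 20.9 and 9.67 FPKM. In these 3 genes no sample of cTECs reached an mTEC sample. Nfkb2, of the non-canonical pathway, was at 48.1, 54.0 and 52.4 FPKM against 89.3, 131 and 86.0 FPKM, with a log2 fold change of -0.97 ± 0.18 just under the fold threshold (adjusted p = 0.00295).

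Among 20 cytokine and costimulation genes, 2 were higher in cTECs (Kitl and Cd83) and 2 in mTECs (Cd40 and Icosl) (0 and 1 without replicate 1, 2 and 4 without replicate 2, 1 and 2 without replicate 4). Icosl, the ligand of ICOS, was at 5.11, 4.29 and 4.85 FPKM in cTECs and 17.3, 41.3 and 20.03 FPKM in mTECs. Kitl, stem cell factor, was at 20.5, 17.8 and 17.9 FPKM against 2.31, 18.9 and 5.16 FPKM. Here mTEC replicate 2 lay inside the cTEC range and the other 2 mTEC samples far below it. Cd274, which encodes PD-L1, was at 116, 104 and 99.5 FPKM against 59.5, 54.6 and 58.5 FPKM, at 0.86 ± 0.17 on the log2 scale just under the fold threshold (adjusted p = 0.00574).

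Calls among the genes of antigen presentation are read beside the 2.8% called over all genes. In a list of 11 genes, a count of 0 does not set them apart from all genes. None of 11 MHC class II genes was called in limma-voom or edgeR, and 1 in DESeq2, with a list median of -0.025 (-0.14 to 0.11 without replicate 1, 2 or 4). H2-Aa was at 3167, 3201 and 2983 FPKM in cTECs and 3123, 2793 and 2929.7 FPKM in mTECs, with a 95% confidence interval of the log2 difference from -0.23 to 0.37, and Cd74, the invariant chain, had an interval from -0.32 to 0.27. Both intervals lie well inside a 2-fold difference. At an unadjusted p under 0.05, 5 of the 11 passed, against 3573 of all 17874 genes. Without replicate 4, 1 gene was called, higher in cTECs. H2-DMa, which loads peptides, came nearest, at 172, 236 and 194 FPKM against 132, 88.7 and 115 FPKM (0.98 ± 0.22, adjusted p = 0.0149). H2 genes resemble each other, so their reads may be split between copies.

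Of 17 proteasome and MHC class I genes, Psmb11 alone was called (5.88%, against 2.8% over all genes), also without replicate 1, 2 or 4. Psmb5 and Psmb8, the subunits whose place Psmb11 takes, were at 0.31 (interval from -0.24 to 0.85) and 0.13 (from -0.24 to 0.50). Psme1, a subunit of the proteasome activator PA28, was at 129, 117 and 117 FPKM in cTECs and 321, 178 and 253 FPKM in mTECs, at -0.85 ± 0.18 under the fold threshold.

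Lysosomal proteases were called in both directions. Prss16 was higher in cTECs, and Ctss, Ctsc, Ctsh and Ctsz were higher in mTECs, 5 called of 12 (1 and 2 without replicate 1, 2 and 3 without replicate 4). Ctss, the cathepsin that degrades the invariant chain in antigen-presenting cells, was at 9.53, 13.2 and 9.38 FPKM in cTECs and 31.7, 43.6 and 43.3 FPKM in mTECs. Ctsh was at 11.1, 17.9 and 18.2 FPKM against 65.3, 58.6 and 39.8 FPKM, and Ctsz at 43.7, 31.2 and 33.2 FPKM against 111, 114 and 80.2 FPKM. None of these overlapped. Ctsb was at -0.06, with an interval from -0.44 to 0.32. Ctss is also expressed by myeloid cells, whose markers are given below.

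Tissue-restricted antigens were mostly at low levels with a wide spread. Of 28 genes, 27 matched the annotation and 21 were compared, and 2 were called, Crp and Csn2, both higher in mTECs (1 without replicate 1, 5 without replicate 2, 1 without replicate 4). The median log2 fold change of the list was -2.52, and 18 of 21 genes were below 0. A gene near 0 FPKM in cTECs was compared only because of its level in mTECs, which fixed its sign. The median and the count of signs are therefore not a test of this list. Csn2, the milk protein beta-casein, was at 23.3, 26.9 and 16.4 FPKM in cTECs and 122, 301 and 114 FPKM in mTECs. Apoa1, an apolipoprotein of the liver, was at 2.78, 2.92 and 2.46 FPKM against 21.6, 24.2 and 9.36 FPKM, and with an adjusted p of 0.046 it was not called with all 6 samples but was without replicate 2. Tg, thyroglobulin, was at 0.32, 0.07 and 0.69 FPKM against 3.62, 29.4 and 3.71 FPKM, most of it in mTEC replicate 2.

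Genes of the mimetic mTEC states, which resemble cells of other tissues, were not alike. Of 16 keratinocyte genes, 3 were called, Dsg1a, Krt77 and Krt10, all higher in mTECs (6 without replicate 2), and 15 of the 16 were below 0 with a median of -2.29. Krt10 was at 16.7, 7.04 and 4.65 FPKM in cTECs and 29.2, 74.0 and 19.3 FPKM in mTECs. Of 16 genes of tuft cells, chemosensory cells of mucosae, none was called in limma-voom, edgeR or DESeq2. In limma-voom 2 had an unadjusted p under 0.05, against 3573 of all 17874 genes. The list median was 0.072 (-0.16 to 0.33 without replicate 1, 2 or 4). Trpm5, the tuft cell channel, was at 35.0, 18.2 and 23.1 FPKM in cTECs and 24.2, 21.3 and 15.0 FPKM in mTECs, with an interval from -0.37 to 0.64. Tuft cell transcripts were thus present in both gates with overlapping samples for this gene. Over all genes 2.8% were called, so a count of 0 in 16 genes does not set the tuft cell list apart. The difference between the lists was not tested.

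Of 16 genes of microfold and intestinal cells, Aoc1, a diamine oxidase, was called (6.25%, against 2.8% over all genes). It was at 15.7, 8.0 and 7.75 FPKM against 24.4, 25.6 and 20.4 FPKM (0 called without replicate 1, 3 without replicate 2, 0 without replicate 4). Gp2, the bacterial receptor of microfold cells, was at 30.5, 66.3 and 22.5 FPKM in cTECs and 41.1, 67.1 and 50.9 FPKM in mTECs (interval from -1.05 to 0.04). Of 9 muscle genes compared, Des, the intermediate filament of muscle, was called, at 4.77, 1.66 and 3.31 FPKM against 23.6, 26.5 and 27.1 FPKM (0 without replicate 1), and all 9 were below 0. Des was not called without replicate 1 or without replicate 4. Ttn was at 0.08, 0.04 and 0.06 FPKM against 0.24, 13.5 and 0.13 FPKM, so that mTEC replicate 2 alone held it above 1 FPKM. Muscle genes near 0 FPKM in cTECs, such as Ttn, were compared only because of their mTEC level, which fixed their sign. Insm1, of neuroendocrine cells, was higher in mTECs, at 4.05, 2.10 and 1.56 FPKM against 10.9, 26.2 and 12.05 FPKM.

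Insm1 was 1 of 2 genes called among 11 endocrine and ciliated genes (1 and 2 without replicate 2), and the other, Chga, was higher in cTECs. Chga, chromogranin A of neuroendocrine and parathyroid cells, was at 881, 1757 and 667 FPKM in cTECs and 272, 373 and 70.8 FPKM in mTECs, with a log2 fold change of 2.35 ± 0.22 (adjusted p = 1.26e-05). Pth, the parathyroid hormone, looked up after its level was seen, was at 879, 1780.3 and 533 FPKM against 246, 302 and 59.6 FPKM (2.47 ± 0.23, adjusted p = 1.02e-05). Kl, the FGF23 coreceptor klotho of kidney and parathyroid, was at 8.20, 17.0 and 7.49 FPKM against 2.38, 2.06 and 0.86 FPKM. In all 3 genes cTEC replicate 2 was the highest sample and mTEC replicate 4 the lowest. Gcm2, the parathyroid regulator, was at 1.43, 3.53 and 1.26 FPKM against 1.08, 0 and 0.14 FPKM, and Casr, the calcium receptor, at 14.9, 14.9 and 9.74 FPKM against 4.68, 10.3 and 6.56 FPKM, neither called. Parathyroid tissue can lie beside or in the thymus. The summed level of Pth, Chga, Gcm2, Casr and Kl was 1219 to 3573 FPKM in cTECs and 138 to 688 FPKM in mTECs, and whether these transcripts came from thymic epithelium was not tested.

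**Figure D4:**
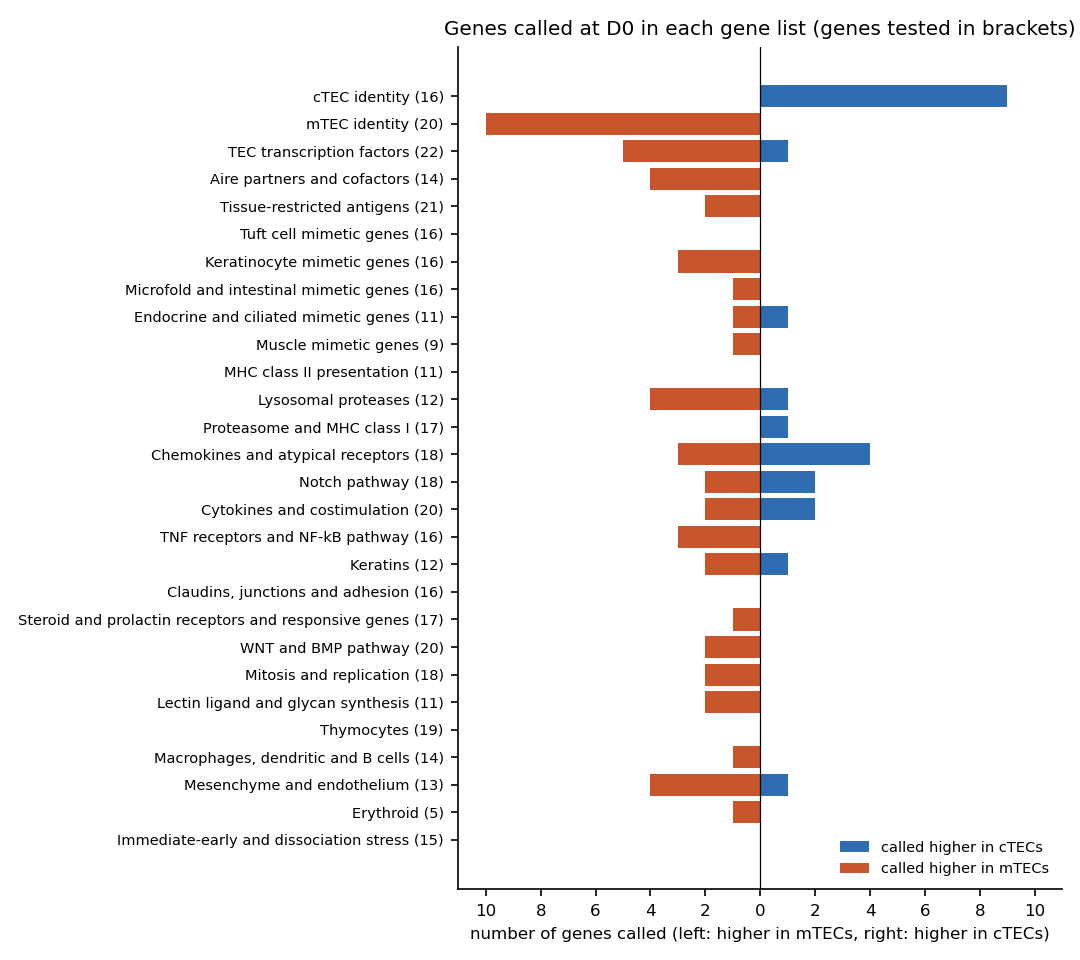
Number of genes called at D0 in each of the 28 gene lists, to the right of 0 those higher in cTECs (blue) and to the left those higher in mTECs (orange), with the number of genes compared in brackets. The cTEC list has 9 calls to the right and the mTEC list 10 to the left, and 5 lists have no call: tuft cells, MHC class II, claudins and junctions, thymocytes, and stress genes. Over all genes compared, 2.8% were called, so a short list without a call does not stand apart.

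Keratins followed the layout of the thymus in part. Krt14, a basal keratin of the medulla, was at 277, 231 and 232 FPKM in cTECs and 1052, 818 and 925 FPKM in mTECs, a log2 fold change of -2.06 ± 0.16, and Krt17 was at 860.3, 691 and 713 FPKM against 1874, 1478 and 1474 FPKM. Krt19 was higher in cTECs, at 136, 65.8 and 71.1 FPKM against 63.9, 33.7 and 26.1 FPKM, with its lowest cTEC sample at nearly the same level as the highest mTEC sample (0 and 2 without replicate 1, 0 and 2 without replicate 4). Krt5, the usual medullary marker, was at 2276, 1238 and 1909 FPKM against 3059, 2016 and 2607 FPKM, with overlap and -0.55 ± 0.13 on the log2 scale. Krt8, the usual cortical marker, was at 0.30, with an interval from 0.00 to 0.60. Among 16 claudins, junction and adhesion genes none was called in limma-voom or edgeR and 1 in DESeq2. In limma-voom 4 had an unadjusted p under 0.05, against 3573 of all 17874 genes. Itga6 was under the fold threshold at -0.85 ± 0.16 (adjusted p = 0.00378). With 2.8% called over all genes, a list of this size without a call does not stand apart. Epcam, used in the sort of both cell types, was at 145, 135 and 138 FPKM against 202, 134 and 224 FPKM.

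Against the median log2 fold change of 0.005 over all genes, the lists differed in their balance. The medians of the transcription factors, AIRE partners, endocrine and ciliated genes, proteasome and MHC class I genes, Notch genes, claudins and junctions, steroid and prolactin genes, and WNT and BMP genes were -0.16, -0.19, -0.06, 0.001, 0.15, -0.09, 0.04 and -0.003. Without replicate 1, 2 or 4 these 8 medians lay from -0.39 to 0.61, and several changed sign. Chemokines, cytokines, TNF receptors, keratins and lysosomal proteases had medians from -0.61 to -0.53, all towards mTECs, and from -0.72 to -0.23 without replicate 1, 2 or 4. The median was -0.93 for microfold and intestinal genes and -2.75 for muscle genes. Among the lists of other cells it was 0.80 for thymocytes, -1.01 for macrophages, dendritic and B cells, -2.50 for mesenchyme and endothelium, and -3.85 for erythroid genes. Without replicate 2 it was 0.18 for thymocytes, -1.12 for mesenchyme and endothelium and -2.43 for erythroid genes, and without replicate 4 it was 1.38 for thymocytes. In lists with genes near 0 FPKM in cTECs, such as muscle, mesenchyme and erythroid genes, the filter on level set part of the signs.

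The sort rested on a lectin, and the gene that makes its ligand differed accordingly. Fut1, the fucosyltransferase that builds the H antigen bound by UEA1, was at 2.82, 2.08 and 3.64 FPKM in cTECs and 28.2, 30.0 and 22.7 FPKM in mTECs, with a log2 fold change of -3.03 ± 0.42 (adjusted p = 0.000345). As the gate selected cells on this sugar, the difference in Fut1 checks the sort and is not a separate finding. Muc1, a mucin that carries such sugars, was at 9.93, 12.2 and 5.04 FPKM against 25.5, 52.4 and 14.0 FPKM. These were the 2 genes called of 11 in the list, and all 11 were below 0 with a median of -0.56. Without replicate 1 Fut1 alone was called and 8 of 11 were below 0, and in edgeR Muc1 was not called.

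Of 17 receptors for steroids and prolactin and genes that respond to them, 1 was called (5.88%, against 2.8% over all genes). It was Socs2, a feedback inhibitor of growth hormone and prolactin signals, at 22.0, 20.4 and 12.2 FPKM in cTECs and 63.3, 103 and 45.4 FPKM in mTECs (-2.01 ± 0.24, adjusted p = 9.55e-05). Pgr, the progesterone receptor, was at 6.06, 12.6 and 11.5 FPKM against 1.44, 6.17 and 3.27 FPKM, with 1 mTEC sample above the lowest cTEC sample (adjusted p = 0.0779). Esr1, the estrogen receptor alpha, was at 3.02, 3.25 and 4.37 FPKM against 3.15, 5.27 and 8.39 FPKM, with overlap (adjusted p = 0.34). Prlr, the prolactin receptor, was at 6.73, 1.39 and 1.07 FPKM against 3.17, 9.70 and 2.60 FPKM (adjusted p = 0.0243). Without replicate 2, Pgr and Nr3c2, the mineralocorticoid receptor, were also called, both higher in cTECs. Without replicate 4 Prlr was called as well, higher in mTECs.

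Of 20 WNT and BMP genes, 2 were called, both higher in mTECs (0 without replicate 1, 5 without replicate 2). Wnt10a was at 7.57, 9.11 and 5.33 FPKM in cTECs and 33.9, 32.4 and 19.3 FPKM in mTECs, and Id2, a target of BMP signals, was at 35.3, 26.2 and 41.0 FPKM against 97.0, 54.1 and 85.3 FPKM. Wnt4, a ligand made by thymic epithelium, was at 256, 175 and 266 FPKM against 197, 98.5 and 127 FPKM and was not called (0.74 ± 0.17, adjusted p = 0.0157). Bmp4 was at 11.6, 8.38 and 10.7 FPKM against 2.95, 1.82 and 1.83 FPKM with no overlap, yet with an SE of 0.90 on the log2 scale it was not called (adjusted p = 0.134). Bmp2 was at 2.00, 1.42 and 1.04 FPKM against 4.54, 6.05 and 5.00 FPKM, in the opposite direction (-2.01, adjusted p = 0.0353).

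Transcripts of dividing cells were low in both cell types. Of 18 genes, 2 were called (11.1%, against 2.8% over all genes), both higher in mTECs, with a list median of -1.60 (1 without replicate 1, 1 without replicate 2, 1 without replicate 4). Mki67 was at 1.81, 2.57 and 1.09 FPKM in cTECs and 3.78, 10.3 and 3.58 FPKM in mTECs, with no overlap, and Top2a as given above. Both were highest in mTEC replicate 2, as was Cdk1, at 4.36, 2.97 and 2.98 FPKM against 12.1, 34.6 and 4.97 FPKM (adjusted p = 0.0896). Without replicate 2 Mki67 alone was called. The replication genes Mcm2, Mcm5 and Pcna were at 0.04, 0.09 and -0.26, none of them called.

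Markers of cells that the sort should have removed were present, and some moved with the groups. In bulk samples, fewer cells of a type and less RNA per cell cannot be told apart. Nor can reads from such cells and expression of the same genes by mTECs, which express genes of many peripheral tissues. Of 19 thymocyte genes compared none was called in limma-voom or edgeR and 1 in DESeq2. In limma-voom 1 had an unadjusted p under 0.05, against 3573 of all 17874 genes, and without replicate 2 Bcl11b was called. The summed level of the 20 genes was 59.3 to 89.5 FPKM in cTECs and 44.0 to 64.9 FPKM in mTECs. Ptprc, which encodes CD45, was at 2.62, 0.41 and 2.13 FPKM in cTECs and 0.73, 0.56 and 1.74 FPKM in mTECs.

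For macrophages, dendritic cells and B cells, the summed level of 17 genes was 30.3 to 37.6 FPKM in cTECs and 69.5 to 104 FPKM in mTECs. Of 14 genes compared, Lyz2, the lysozyme of myeloid cells, was called, at 8.80, 16.0 and 16.4 FPKM against 45.3, 56.3 and 40.4 FPKM (0 without replicate 1). Chil3 and the cathepsins Ctss and Ctsh moved with it, and the part of such cells in their values was not tested. C1qa was at 2.29, 0.04 and 1.64 FPKM against 7.53, 12.8 and 3.86 FPKM, and Tyrobp was at 0, 2.38 and 0.9 FPKM against 0, 0 and 2.33 FPKM, so Tyrobp was at 0 in 3 of the 6 samples while C1qa did not overlap (adjusted p = 0.266).

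For mesenchyme and endothelium, the summed level of 16 genes was 267 to 345 FPKM in cTECs and 437 to 486 FPKM in mTECs, and 5 of 13 genes compared were called (0 and 2 without replicate 1, 0 and 4 without replicate 2). Acta2, smooth muscle actin, was at 37.8, 23.0 and 36.9 FPKM in cTECs and 230.1, 159 and 227 FPKM in mTECs, Rgs5, of pericytes, was at 8.45, 8.21 and 6.99 FPKM against 44.7, 102 and 73.5 FPKM, and Myh11 and Col1a1 were also higher in mTECs. Dcn, decorin of fibroblasts, was higher in cTECs, at 229.7, 271 and 177 FPKM against 128, 96.4 and 104 FPKM. Other markers were near 0 in cTECs. Pdgfra was at 0, 0 and 0.1 FPKM against 1.65, 2.63 and 0.51 FPKM, and Pecam1, of endothelium, at 0, 0 and 0.45 FPKM against 1.18, 2.22 and 0.11 FPKM, while Cdh5, also of endothelium, was at 0 in all cTEC samples. Pdgfra and Pecam1 were compared only because of their mTEC level, which fixed their sign, so their direction is not a test. Sox18 and Des moved in the same direction, and the part of such cells in their values was not tested.

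Of 5 erythroid genes compared, Hba-a2 was called (0 without replicate 1, 0 without replicate 4), and the summed level of 6 genes was 0.81 to 3.01 FPKM in cTECs and 9.32 to 79.1 FPKM in mTECs. The immediate-early and stress genes that tissue digestion induces summed to 11180 to 13688 FPKM in cTECs and 7432 to 10641 FPKM in mTECs. None of the 15 was called in limma-voom, edgeR or DESeq2. In limma-voom 9 had an unadjusted p under 0.05, against 3573 of all 17874 genes. Of the 15, 14 were above 0, and the median was 0.43. Without replicate 1 Fosb was called, higher in cTECs, and the median was 0.75, against 0.19 without replicate 2. Fosb, of the AP-1 family, was at 1154, 1567 and 1201 FPKM against 853, 741 and 617 FPKM, under the fold threshold at 0.84 ± 0.17 (adjusted p = 0.0058).

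The differences at D0 were then looked up in the mice of the other time points, which share no sample with D0. At D-2, 858 genes were called (4.52% of those tested), at D3 97 (0.588%) and at NPC 128 (0.693%). Higher in cTECs were 1.77%, 0.291% and 0.303% of the genes at D-2, D3 and NPC, and higher in mTECs 2.75%, 0.297% and 0.39% of the genes at D-2, D3 and NPC. All of the 144 genes higher in cTECs at D0 were above 0 at D-2, as were 143 of 143 tested at D3 and 143 of 143 at NPC. Among all genes above 0 at D0, 60.5% to 70.5% had the same sign at these time points. Of the 357 genes higher in mTECs, 357 of 357, 348 of 356 and 356 of 357 were below 0, against 67.2% to 74.6% of all genes below 0 at D0. The 8 genes with the opposite sign at D3 were Chil3, Galnt2, Igf2, Il2rg, Inf2, Lsp1, Rassf4 and Shisa4, and Galnt2 was also the exception at NPC.

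At D-2, where the most genes were called, 114 of the 144 genes were also called higher in cTECs (79.2% of the D0 list and 33.9% of the D-2 list) and 294 of the 357 higher in mTECs (82.4% and 56.3%). At D3 the shared calls were 37 (25.7% and 77.1%) and 38 (10.6% and 77.6%), and at NPC 41 (28.5% and 73.2%) and 70 (19.6% and 97.2%). The NPC fit had no pairing, because its titles share the numbers 1 and 4 only. Libraries held 8495657 to 48195568 expected counts at D-2, 4879103 to 12917039 at D3 and 6718253 to 31668145 at NPC. The part of depth and pairing in the shared calls was not tested, so fewer shared calls do not show a change over time.

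**Figure D5:**
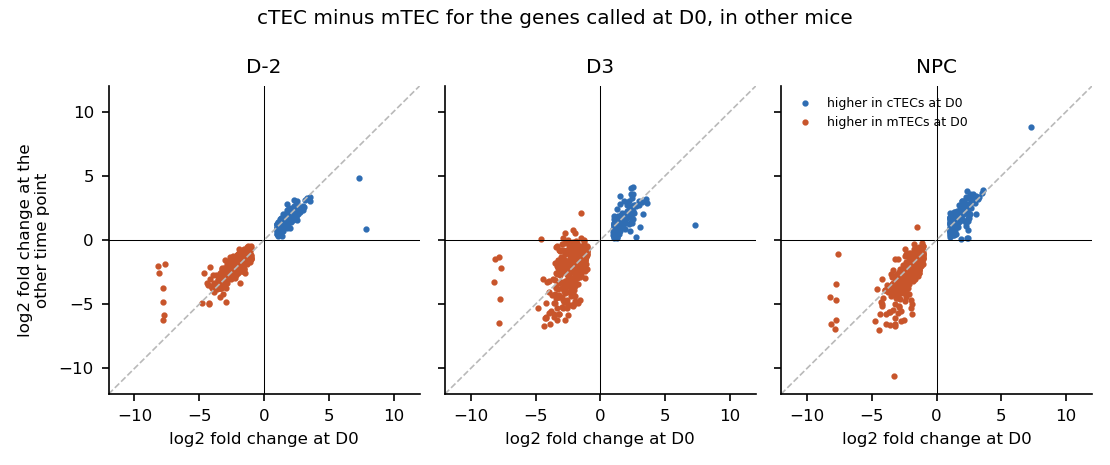
Log2 fold change (cTEC minus mTEC) of the genes called at D0 against the same value in other mice at D-2, D3 and NPC, with genes higher in cTECs in blue and in mTECs in orange, and a dashed line for equal values. The points of D-2 lie in the 2 quadrants of equal sign, and 8 orange points at D3 and 1 at NPC lie above 0.

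Mean levels of the markers are given for each time point. Prss16 in cTECs was at a mean FPKM of 221 ± 54.7 at D-2, 511 ± 117 at D0, 1829.8 ± 572 at D3 and 1549.9 ± 425 at NPC (mean ± SD, n = 3). Psmb11 in cTECs was at a mean FPKM of 27.3 ± 10.4 at D-2, 81.8 ± 3.46 at D0, 247 ± 91.1 at D3 and 177 ± 89.5 at NPC, and Ly75 at a mean FPKM of 29.4 ± 4.36 at D-2, 53.6 ± 10.6 at D0, 85.2 ± 39.6 at D3 and 91.6 ± 9.14 at NPC. The mean of all 3 cTEC markers on the day of birth thus stood between those of D-2 and D3. Among the medullary markers, Aire in mTECs was at a mean FPKM of 104 ± 50.3 at D-2, 62.0 ± 26.8 at D0, 46.7 ± 24.7 at D3 and 172 ± 126 at NPC, Fezf2 at a mean FPKM of 138 ± 15.1 at D-2, 122 ± 11.6 at D0, 161 ± 35.9 at D3 and 133 ± 30.1 at NPC and Ccl21a at a mean FPKM of 9969 ± 3321 at D-2, 12010.4 ± 2897 at D0, 12013 ± 1424 at D3 and 12514 ± 3156 at NPC. Differences between time points within a cell type were not tested here. The log2 difference between cell types was 0.92, 1.98, 2.10 and 3.03 for Psmb11 at D-2, D0, D3 and NPC, and -3.78, -3.65, -3.05 and -5.60 for Aire.

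The test of the difference itself, an interaction of cell type and time point, called no gene in limma-voom. Against D-2, D3 and NPC, 0 of 20268, 19008 and 19976 genes passed, with 757, 745 and 1056 genes at an unadjusted p under 0.05. The edgeR quasi-likelihood test also called 0 in each, and the DESeq2 Wald test called 2, 8 and 36. The uncalled genes with the smallest p against D-2 were Gm20431, Cyp2f2, Fabp5, Gdf3 and Gm4737. Cyp2f2, a cytochrome of the airways, was at a mean of 67.6 FPKM in cTECs and 102 FPKM in mTECs at D0, and at 115 and 63.3 FPKM at D-2. Its interaction was -1.42 ± 0.28 (SE), with an adjusted p of 1.00. Against D3 they were Hist1h2ap, Gm10222, Fosb, Gm49388 and Ppp1r15a, among them stress genes. Fosb was at 1307 FPKM in cTECs and 737 FPKM in mTECs at D0, and at 833 and 1086 FPKM at D3, with an interaction of 1.31 ± 0.24 (adjusted p = 0.953). Against NPC they were Rpl10, Pak3, Zfp969, mt-Rnr1 and Rps12l1. Pak3, a kinase of neurons, was at 26.9 FPKM in cTECs and 12.3 FPKM in mTECs at D0, and at 39.8 and 7.45 FPKM in NPC. These NPC means take in all NPC samples. The interaction was fitted with the title number as a term, so against NPC it rests only on NPC samples whose number occurs in both cell types.

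The parathyroid transcripts had a small log2 difference in NPC. Pth was at a mean FPKM of 2371 ± 2155 at D-2, 1064 ± 644 at D0, 159 ± 89.8 at D3 and 514 ± 431 at NPC in cTECs and 293 ± 203 at D-2, 203 ± 127 at D0, 36.9 ± 32.0 at D3 and 545 ± 449.5 at NPC in mTECs. Its log2 difference was 2.72, 2.47, 2.36 and 0.14 at D-2, D0, D3 and NPC, and that of Chga was 2.64, 2.35, 2.25 and 0.18. The SD was close to the mean in several groups. The interaction against NPC was 1.78 (adjusted p = 0.896) for Pth. It rests only on the paired NPC samples, while the NPC means and log2 difference given here use all NPC samples. The interaction is therefore not the D0 log2 difference minus that of NPC.

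Lastly, the promoter windows of the called genes were searched for the letters marked in the sequences above. RefSeq windows matched 112 of the 144 genes higher in cTECs, 253 of the 357 higher in mTECs and 12257 of the 17874 genes compared. TATAAA within 50 bases upstream of the start stood in 3.57%, 7.51% and 2.39% of these windows, and in 2.88% of all 27025 windows. GACGC on either strand stood in 45.5%, 27.7% and 42.5%, against 27.4% of all windows. The median number of CG dinucleotides was 20, 13 and 19, and windows with fewer than 10 of them made up 28.6%, 43.9% and 25.5%. The windows of genes higher in mTECs were thus poorer in CG and in GACGC than those of all genes compared. GACGC itself holds a CG, so these values are not independent. The GACGC share of 27.7% was near the 27.4% of all windows. A match describes the letters of the window and is not a binding site.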

How the data were processed

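RNA of sorted cTECs and mTECs was sequenced on a NextSeq from stranded poly-A libraries (KAPA). According to the submitters' processing notes, the authors used bcl2fastq 2.20, Trimmomatic 0.35, STAR 2.5.1b and RSEM 1.2.28 with GRCm38. The annotation release and the strand setting of RSEM are not given in the sources used here. The deposited files hold expected counts, TPM and FPKM per gene. Gene symbols and positions were taken from GENCODE M21 (50376 of 50600 identifiers matched).

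Expected counts were rounded, scaled by TMM (edgeR 4.0.16) and fitted with limma-voom (limma 3.58.1, R 4.3.3) to the 6 D0 samples, with the title number as a term. Genes with a fold-change of at least 2 and an adjusted p of at most 0.01 were called. Time points were compared through an interaction of cell type and time point. DESeq2 1.42.0 was an alternative. The code was tested on simulated data. Named genes were 6 markers, members of 28 lists, and the 12 called genes per direction with the largest fold change among those with at least 5 FPKM and no overlap. The members and lists were chosen with earlier results of these data known. Intervals cover the spread between these samples only.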

Additional observations from a re-analysis of the deposited data

How the results depend on the processing

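The direction of the 30 genes named by rule (the 6 markers and the 12 largest differences on either side) was the same under all 19 alternatives. The number of genes called at D0, 501 with all 6 samples, was 242 in edgeR (59 higher in cTECs and 183 in mTECs), 1400 in DESeq2 (383 and 1017), 966 with sample quality weights (252 and 714), 903 at an adjusted p of at most 0.05 (250 and 653), 1272 at an unadjusted p of at most 0.01 (324 and 948) and 45 when the fold change was tested against 2 (9 and 36). With limma-trend it was 13 on log2(FPKM + 0.5), 11 on log2(FPKM + 0.1) and 11 on log2(TPM + 0.5). Leaving out the samples of 1 title number gave 225 to 858 calls. Without TMM, with DESeq2 size factors, with a mean of at least 2 FPKM and without a filter on low expression there were 524, 512, 535 and 704 calls.

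Samples of the same title number did not deviate together (r = 0.009, 0.016 and 0.030 for numbers 1, 2 and 4, other combinations -0.024 to 0.009). This does not show whether they came from the same mouse. Without the replicate block, 393 genes were called (116 higher in cTECs and 277 in mTECs), and of the 30 named genes 8 were no longer called (Kl, Hba-a2, Crp, Chil3, Fgf21, Acacb, Pgc and Thbs4). Against these 393, a fit to 24 samples without the replicate block gave 429 calls, and leaving out mTEC replicate 2 alone without the replicate block, chosen after seeing the data, gave 641. The interactions had 0 calls without the replicate block.

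The interactions of cell type and time point had 0 calls against D-2, D3 and NPC in limma-voom and in edgeR, and 2, 8 and 36 in DESeq2. Leaving out 1 D0 replicate gave 0 to 1 call against D3 and 0 to 2 against NPC, in each case from leaving out replicate 4. The cause of these differences was not tested. Each group had 3 samples, and the smallest D0 library held 10273164 counts. At NPC only the numbers 1 and 4 were paired. A gene that was not called, and 0 calls in an interaction, therefore do not show that the cell types or time points were alike.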
